A study of Rattus norvegicus with 9 samples.

Results

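Protein phosphatase genes were followed in the posterior cricoarytenoid, the laryngeal muscle that opens the vocal folds, of rats aged 6, 18 and 30 months. The set holds every gene whose symbol starts with *Ppp*, *Ppm1*, *Dusp*, *Ptpn*, *Ptpr* or *Ptp4a* on a probe set that carries that symbol alone, with *Ptpn23* left out. It comprises 66 of 4736 named genes on the array, measured by 107 of 8740 probe sets, and the probe set with the highest mean signal stands for each gene. Whole muscle was profiled on 9 Affymetrix RG-U34 arrays, with 3 independent pools for every age and 4 animals in a pool. The labels name no treatment and set the groups apart by age only, and 6 months is the baseline of the study. The labels state no strain, sex or housing. The spread between arrays is a spread between pools, so differences between single animals are not seen.

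Protein phosphatases remove the phosphate groups that kinases add to serine, threonine or tyrosine. A few serine and threonine catalytic subunits (PP1, PP2A, calcineurin) take their specificity from regulatory subunits, whereas tyrosine phosphatases and the dual-specificity phosphatases that switch off MAP kinases are each encoded by a gene of their own. In skeletal muscle, calcineurin responds to calcium and dephosphorylates NFAT transcription factors in the control of fibre type, and myosin phosphatase, a PP1 enzyme, dephosphorylates the regulatory light chain of myosin.

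The tissue carried the markers of skeletal muscle: the mean signals at the 3 ages, youngest first, were 34163, 44701 and 45860.3 for *Ckm*, muscle creatine kinase, and 29812, 35064 and 35043 for *Acta1*, skeletal α-actin. Signals are deposited Microarray Suite 5.0 intensities on a linear scale, and a signal is not compared between probe sets, because each has its own brightness. The median signal of an array was 120.1 to 124.8 at 6 months, 104.2 to 115.7 at 18 months and 104.8 to 112.2 at 30 months, so every array of 6 months lay above every later one. Other cell types were also present. Over the 6 fibroblast markers on the array, the summed signal was 15958 to 20000.4 at 6 months, 11686 to 12573 at 18 months and 13031 to 13198 at 30 months. Of these 6 genes, 1 (*Col1a2*) passed at 18 months and 3 (*Col1a1*, *Col1a2* and *Col3a1*) passed at 30 months, all lower. In the 10 other marker lists (muscle fibre, smooth muscle, endothelium, leukocyte, Schwann cell, neuron, adipocyte, cartilage, thyroid and erythroid) 0 of the tested genes passed in any comparison. For cartilage 0 of the 3 genes on the array were tested, so that list could give no call. Tested in part were endothelium (3 of 5), leukocyte (6 of 10), neuron (4 of 6), smooth muscle and adipocyte (4 of 5 each). The cartilage markers were nearly silent, with a summed signal of 51.2 to 131.3. The summed thyroid markers ranged widely between arrays of 1 age, from 355 to 1037 at 18 months.

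No phosphatase gene passed the threshold in any comparison of ages. After a filter on signal strength, 50 of the 66 genes were tested in a limma fit over all 5244 tested probe sets, on log2(signal + 32), with a threshold of 0.05 on p-values adjusted by Benjamini and Hochberg. At 18 against 6 months 0 of 50 genes passed, against 0.0763% of all probe sets; at 30 against 6 months 0 passed, against 0.324%; and at 30 against 18 months 0 passed, against 0.0191%. The F-test across the 3 ages also called 0, against 0.267% of all probe sets. The lowest adjusted p among the 50 genes was 0.431, 0.329 and 0.999 in the 3 comparisons.

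Without adjustment, 3 genes had p under 0.05 at 18 against 6 months (6%, against 8.62% of all tested probe sets), namely *Dusp5* and *Dusp6*, which were lower (5.63% of all), and *Ptpn3*, which was higher (2.99% of all). At 30 against 6 months there were 2 (4%, against 12.9%), *Ptpn3* higher (4.18% of all) and *Ppp2r2c* lower (8.73%), and at 30 against 18 months there were 2 (4%, against 3.2%), *Dusp6* higher (1.47%) and *Ppp2r2c* lower (1.74%). By the F-test there were 4 (8%, against 8.92%), the same *Dusp5*, *Dusp6*, *Ptpn3* and *Ppp2r2c*. Signals of both ages did not overlap in 3 genes at 18 against 6 months (6%, against 13.7%), in 8 at 30 against 6 months (16%, against 22.2%) and in 5 at 30 against 18 months (10%, against 7.36%). By direction, at 18 against 6 months 1 gene was higher and 2 were lower (5.32% and 8.35% of all probe sets), at 30 against 6 months 3 and 5 (7.4% and 14.8%), and at 30 against 18 months 2 and 3 (3.18% and 4.18%). In 0 of the 50 genes was such a gap joined by a ratio of mean signals over 1.7, the size of change the study asked for, against 1.43%, 2.23% and 0.629% of all probe sets. These shares were below or close to those of the array as a whole, and none is read as a result about the phosphatases.

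**Figure D1:**
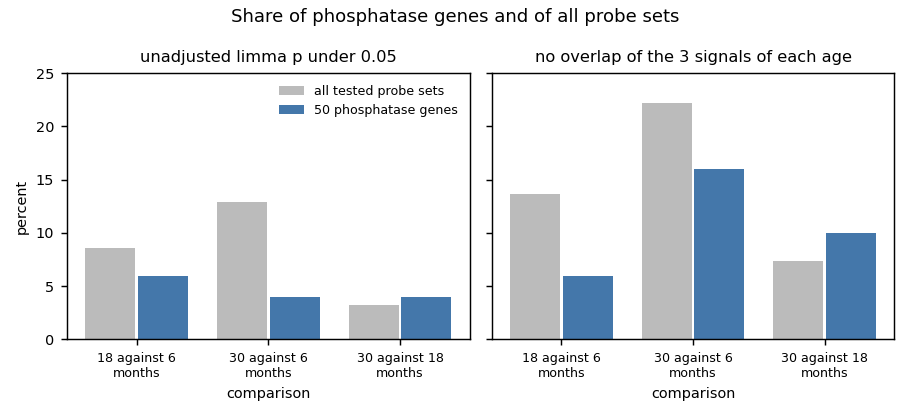
Percent of the 50 tested phosphatase genes (blue) and of all 5244 tested probe sets (grey) with an unadjusted limma p under 0.05 (left) and with no overlap between the 3 signals of each age (right), for each comparison. At 30 against 6 months the phosphatase shares are 4% and 16%, and those of all probe sets are 12.9% and 22.2%.

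The differences were small as well as uncalled. The median log2 change of the 50 genes was -0.02 at 18 against 6 months, -0.03 at 30 against 6 months and -0.01 at 30 against 18 months, beside -0.04, -0.05 and -0.02 over all tested probe sets. The sign of the medians against 6 months depended on the scaling: with the arrays brought to 1 median they turned to 0.0838 and 0.103, beside 0.06 and 0.08 over all tested probe sets. The change with the deposited scaling was above 0 in 21, 21 and 24 of the 50 genes (42%, 42% and 48%, against 42.3%, 41.2% and 45.9%). The median size of the change, regardless of sign, was 0.12, 0.14 and 0.08, beside 0.14, 0.16 and 0.11. For 46 of 50 genes the 95% interval of the change at 18 months lay wholly inside a 1.7-fold change in either direction (92%, against 81.7% of all probe sets). The same held for 45 genes at 30 against 6 months (90%, against 78.9%) and for 47 at 30 against 18 months (94%, against 85.7%). Inside the narrower limit of 1.5-fold lay 39, 36 and 38 of the 50 genes (78%, 72% and 76%, against 62.3%, 57.6% and 69.3%). These are intervals of single genes, not adjusted for their number. The values over all probe sets also include the weaker probe sets of a gene, which are left out for the phosphatases. The effect of that choice on these shares and sizes was not tested. The RNA came from whole muscle, so fewer cells of a type and less RNA per cell cannot be told apart in any value given here.

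**Figure D2:**
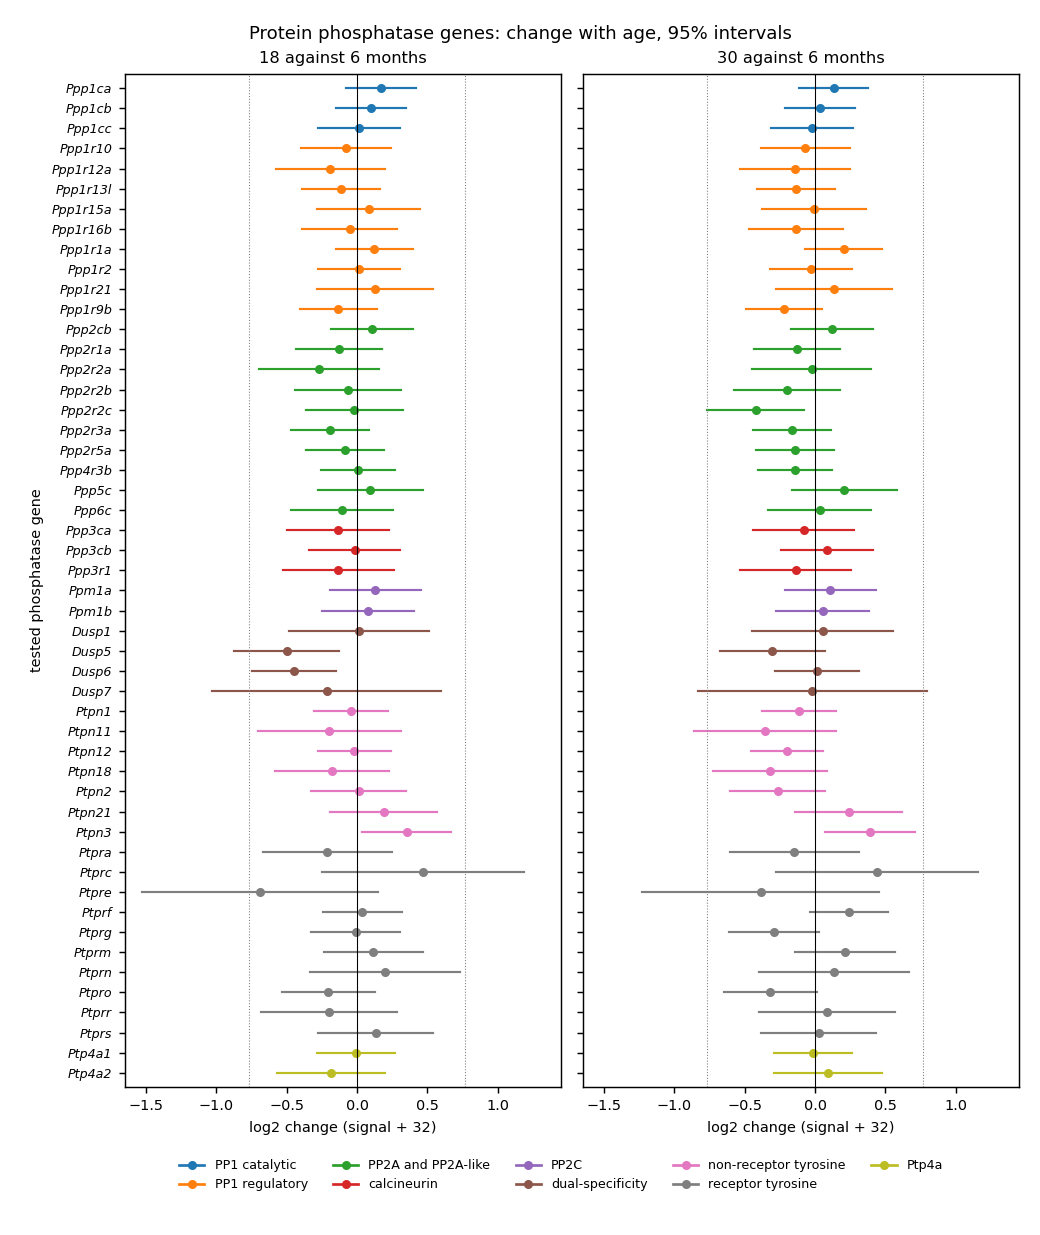
Log2 change (points) with 95% intervals (lines) of the 50 tested phosphatase genes at 18 months (left) and 30 months (right) against 6 months, coloured by family; dotted lines mark a 1.7-fold change in each direction. The intervals of 46 genes (left) and 45 genes (right) lie between the dotted lines, and *Ptpre*, *Ptprc* and *Dusp7* have the widest.

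Calcineurin was represented by 4 genes, 3 of them tested. *Ppp3ca*, the gene of the α catalytic subunit, read 1696, 1121 and 1309 on the 3 arrays of 6 months and 1344, 1268 and 1098 at 18 months; those of 30 months read 1249, 1185 and 1412. The ages overlapped throughout, and the highest signal belonged to replicate 1 of 6 months. Its log2 change was -0.13 at 18 months (SE 0.16, 95% interval -0.50 to 0.23, adjusted p = 0.826) and -0.08 at 30 months (-0.44 to 0.28, adjusted p = 0.859). The β catalytic subunit gene, *Ppp3cb*, read 257, 234 and 186 at 6 months and 266.5, 195 and 206 at 18 months; those of 30 months read 240.2, 237 and 240.3. The 3 arrays of 30 months lay inside the range of 6 months and close together, with an SD of 1.76 beside 36.4. Its change at 30 months was 0.08 (-0.24 to 0.41, adjusted p = 0.834).

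*Ppp3r1* encodes the calcium-binding regulatory subunit, calcineurin B, and was read by a pair of probe sets. The stronger one read 679, 931 and 961 at 6 months and 629, 907 and 799 at 18 months; those of 30 months read 671.5, 812 and 827. In each age the replicate 1 array was the lowest, and the ages overlapped. The log2 change was -0.13 at 18 months and -0.14 at 30 months (-0.53 to 0.26, adjusted p = 0.757). The weaker probe set gave -0.13 and, with the opposite sign, 0.15 (adjusted p = 0.761). *Ppp3r2*, the regulatory subunit known from testis, stood at 0.7 to 25.4 on the 9 arrays and was too weak to test. Thus no tested calcineurin subunit passed in any comparison. In the probe sets that stand for the 3 tested genes, the intervals against 6 months lay inside a 1.5-fold change in either direction; in the weaker *Ppp3r1* probe set the upper bound at 30 months, 0.59 on the log2 scale, lay just outside.

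Genes around calcineurin were taken from a list of regulators, anchors and muscle partners. Of 34 genes listed, 15 were on the array and 13 were tested, and 0 of 13 passed in either direction in any comparison. The median log2 change was 0.07 at 18 months and 0.03 at 30 months (0.17 and 0.16 with the arrays at 1 median). *Actn2*, α-actinin of the Z-disc where calcineurin is anchored, had mean signals of 4902, 6974 and 6854 from the youngest age to the oldest (log2 change 0.50 and 0.49, SE 0.16, adjusted p = 0.471 and 0.313). *Ldb3*, another Z-disc gene, gave 0.49 and 0.36 (adjusted p = 0.502 and 0.410). The summed signal of the 9 muscle fibre markers moved alongside, at 150588 to 173667 at 6 months, 180615 to 218327 at 18 months and 184997 to 203356 at 30 months, and its part in these values was not tested. The calmodulin gene *Calm2*, whose product activates calcineurin, gave -0.18 and -0.23, and *Cabin1*, an inhibitor of the enzyme, gave -0.14 and -0.12.

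**Figure D3:**
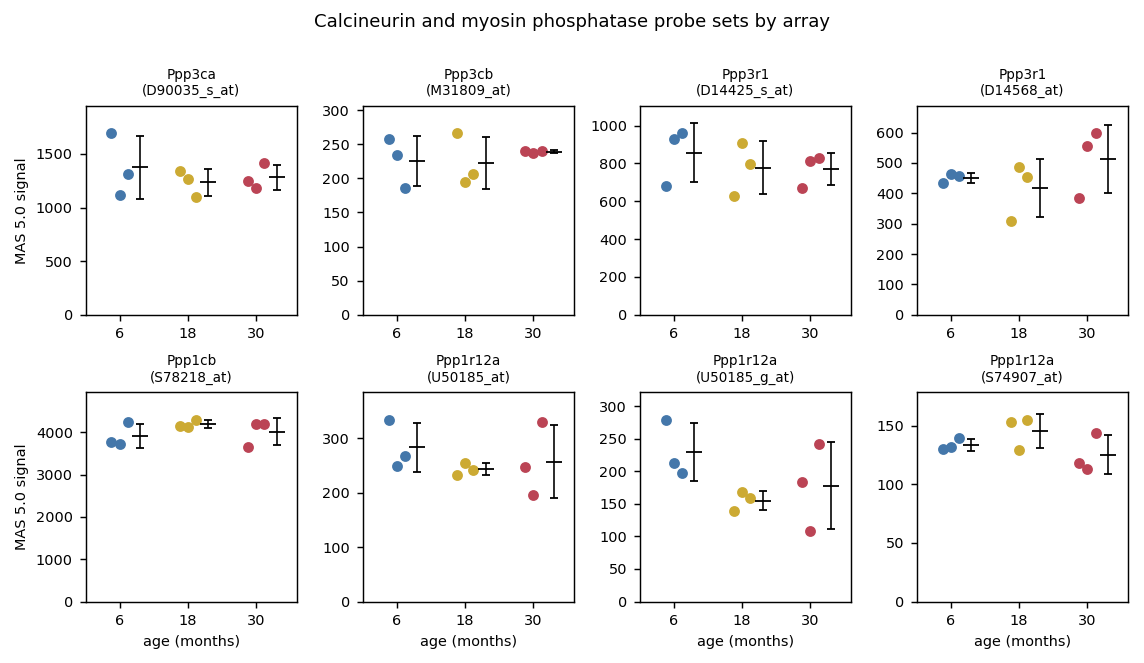
Signal on each array (coloured points, left to right replicates 1 to 3) with the mean and SD (black, n = 3) at 6, 18 and 30 months for the calcineurin genes *Ppp3ca*, *Ppp3cb* and *Ppp3r1* and the myosin phosphatase genes *Ppp1cb* and *Ppp1r12a*; probe set names are in brackets. The ages overlap in the probe sets that stand for each gene, and the second *Ppp1r12a* probe set has all 3 arrays of 18 months (139 to 168) below those of 6 months (197 to 279). The weaker *Ppp1cb* probe set is not drawn.

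Myosin phosphatase was represented by its catalytic subunit gene, *Ppp1cb*, and by *Ppp1r12a*, the gene of its myosin-targeting subunit MYPT1. *Ppp1cb* read 3763, 3726 and 4250 at 6 months and 4148, 4125 and 4299 at 18 months; those of 30 months read 3653, 4196 and 4204. Its intervals were among the narrowest of the family, with a log2 change of 0.10 at 18 months (-0.15 to 0.35) and 0.04 at 30 months (-0.21 to 0.29, adjusted p = 0.914). The weaker *Ppp1cb* probe set gave the opposite sign at both ages, -0.11 and -0.08 (adjusted p = 0.820 and 0.814). *Ppp1r12a* read 334, 249 and 268 at 6 months and 233, 255 and 242.5 at 18 months; those of 30 months read 247, 195 and 329.8 in its strongest probe set (log2 change -0.19 and -0.14, adjusted p = 0.776 and 0.736). The 3 tested *Ppp1r12a* probe sets did not give 1 answer at 18 months, while at 30 months all 3 were lower (-0.14, -0.36 and -0.08) and none passed. At 18 months the second one gave -0.47 (SE 0.23, adjusted p = 0.595), with 139, 168 and 158 below the 279, 213 and 197 of 6 months, while the third gave 0.10.

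The kinases and light chains on the other side of this reaction showed the same absence of calls. Of 21 genes listed for myosin light chain phosphorylation, 15 were on the array and 12 were tested, and 0 of 12 passed in any comparison. The muscle light chain kinase gene *Mylk2* gave a log2 change of -0.0047 at 18 months and -0.17 at 30 months, and *Rhoa*, the GTPase upstream of the kinases that inhibit myosin phosphatase, gave 0.01 and -0.05. *Dapk3*, a kinase that phosphorylates MYPT1, gave 0.22 and 0.40 (SE 0.15, adjusted p = 0.696 and 0.339). The light chain gene *Myl2* of slow fibres gave 0.64 at 18 months (SE 0.15, adjusted p = 0.288), whereas the non-muscle light chain gene *Myl12a* gave 0.0027.

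None of the 3 PP1 catalytic genes passed. From the youngest age to the oldest, *Ppp1ca* read 2211 ± 116, 2496 ± 189 and 2425 ± 144 (SD, n = 3 arrays; log2 change 0.17 and 0.13, SE 0.11, adjusted p = 0.676 and 0.627). *Ppp1cc* gave 0.01 and -0.03. Among the PP1 regulators, 12 genes were on the array and 9 were tested, with a median log2 change of -0.05 at 18 months and -0.07 at 30 months, which turned to 0.05 and 0.06 with the arrays at 1 median.

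*Ppp1r1a*, which encodes inhibitor 1, a PP1 inhibitor switched on by cyclic AMP signalling, had its 3 signals of 30 months above all of 6 months. Its representing probe set read 1883, 1538 and 1588 at 6 months and 1976, 1623 and 1859 at 18 months; those of 30 months read 1935, 1913 and 1911 (log2 change at 30 months 0.20, 95% interval -0.07 to 0.48, adjusted p = 0.497). The gap at 30 months was narrow, since replicate 1 of 6 months came close. Its other probe set, from the same accession, read 719, 721 and 703.5 at 6 months and 952, 830 and 812 at 18 months; those of 30 months read 936, 1065 and 950.3. That is a change of 0.26 and 0.44 (95% interval at 30 months 0.19 to 0.69), the latter the lowest adjusted p of all member probe sets at 30 months, 0.230, which did not pass. The spinophilin gene *Ppp1r9b*, whose product anchors PP1 to actin, read 737 ± 79.5, 669 ± 51.2 and 627 ± 44.0 at the 3 ages (log2 change at 30 months -0.22, adjusted p = 0.463), and *Ppp1r2*, inhibitor 2, gave 0.01 and -0.03.

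Glycogen enzymes are the classical substrates of muscle PP1. All 8 genes of that list on the array were tested and 0 of 8 passed, with medians of 0.08 and 0.10 (0.19 and 0.23 with the arrays at 1 median). The glycogen phosphorylase gene *Pygm* had mean signals of 20958.6, 23258 and 24848 (0.16 and 0.25, adjusted p = 0.716 and 0.393), and *Phkg1*, the catalytic subunit of phosphorylase kinase, gave -0.08 and -0.21. *Ppp1r3b*, a glycogen-targeting subunit best known from liver, stood at 2.2 to 15.8 over the 9 arrays and was not tested.

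PP2A and its relatives contributed 10 genes, all of them tested, with a median log2 change of -0.07 at 18 months and -0.13 at 30 months (0.03 and -0.01 with the arrays at 1 median). *Ppp2r5a*, the gene of a B56 targeting subunit, read 6375 ± 754, 5986 ± 476 and 5752 ± 246 (log2 change at 30 months -0.14, adjusted p = 0.641). The scaffold gene *Ppp2r1a* gave -0.13 at both ages in one probe set but 0.26 and 0.22 in the other. *Ppp2r2c*, the gene of a regulatory B subunit known from brain, had the second smallest p of the F-test among the tested phosphatases. It read 252, 267 and 228 at 6 months and 244, 194 and 307 at 18 months; those of 30 months read 195, 164 and 174. All 3 arrays of 30 months lay below the 3 of 6 months, and those of 18 months spanned both. The change was -0.02 at 18 months, -0.42 at 30 against 6 months (SE 0.15, 95% interval -0.77 to -0.08, adjusted p = 0.329) and -0.40 at 30 against 18 months. Neuronal markers lay the same way: the summed signal of 6 such genes was 539 to 668 at 6 months, 399 to 633 at 18 months and 338 to 424 at 30 months, and the synaptic vesicle gene *Syp* read 125, 113 and 68.7. The part of nerve RNA in the *Ppp2r2c* signal was not tested.

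The PP2C genes *Ppm1a* and *Ppm1b*, whose products act on stress-activated kinases, gave log2 changes of 0.13 and 0.08 from 6 to 18 months, and of 0.11 and 0.05 from 6 to 30 months. The 4 tested *Ppm1b* probe sets disagreed in sign, from -0.09 to 0.17 at 18 months and from -0.19 to 0.26 at 30 months. For the prenylated tyrosine phosphatase genes *Ptp4a1* and *Ptp4a2* the log2 changes were -0.01 and -0.19 from 6 to 18 months, and -0.02 and 0.09 from 6 to 30 months. In *Ptp4a2* the 3 signals of 30 months (4882, 4528 and 5718) lay above those of 18 months (4295, 3886.5 and 4233), while those of 6 months ran from 4006 to 6182 and covered nearly all of both (log2 change from 18 to 30 months 0.28, adjusted p = 0.999).

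Of 5 dual-specificity phosphatase genes 4 were tested, and *Dusp6* and *Dusp5* held the first and the third smallest F-test p among the 50 genes. *Dusp6* encodes a cytoplasmic phosphatase selective for ERK and is itself induced by ERK signalling. It read 685, 555 and 714 at 6 months and 438, 522 and 446 at 18 months; those of 30 months read 594.5, 688 and 688. All 3 arrays of 18 months lay below every array of the younger and the older age, which overlapped. The log2 change was -0.45 at 18 against 6 months (SE 0.13, 95% interval -0.74 to -0.15, adjusted p = 0.431), 0.46 at 30 against 18 months (0.16 to 0.76, adjusted p = 0.999) and 0.02 at 30 against 6 months. It had the smallest p of the F-test among the tested phosphatase genes, 0.0099, with an adjusted p of 0.458. The other *Dusp6* probe set read 580.2, 477 and 469 at 6 months and 249.8, 418 and 463 at 18 months; those of 30 months read 360.5, 465 and 511. Its change at 18 months had a similar size, -0.44 (SE 0.22), and that from 18 to 30 months was 0.25, with overlap. The comparisons of 18 with 6 and of 30 with 18 months share the arrays of 18 months, so the dip is 1 observation. Leukocyte markers had their lowest range at the same age, with a summed signal of 1621 to 1792 at 6 months, 1318 to 1637 at 18 months and 1678 to 2273 at 30 months, and their part was not tested.

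*Dusp5*, the gene of a nuclear ERK phosphatase, read 269.6, 265 and 248 at 6 months and 188, 218 and 129 at 18 months; those of 30 months read 208, 179 and 232. Every array of 18 and of 30 months lay below the 3 of 6 months. The log2 change was -0.50 at 18 months (SE 0.17, 95% interval -0.87 to -0.13, adjusted p = 0.477) and -0.30 at 30 months (-0.68 to 0.07, adjusted p = 0.462). Only 1 probe set reads this gene. The fibroblast markers, whose summed signal averaged 18347, 12205 and 13127 at the 3 ages, also lay lower at both later ages without overlap, and their part in the *Dusp5* signal was not tested. *Dusp7* read 314, 119.9 and 294 at 6 months and 104, 209 and 301 at 18 months; those of 30 months read 223, 190.2 and 259, and its interval at 30 months, -0.84 to 0.80, allowed changes of more than 1.7-fold either way. *Dusp4* stood at 8.5 to 20.7 and was not tested.

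**Figure D4:**
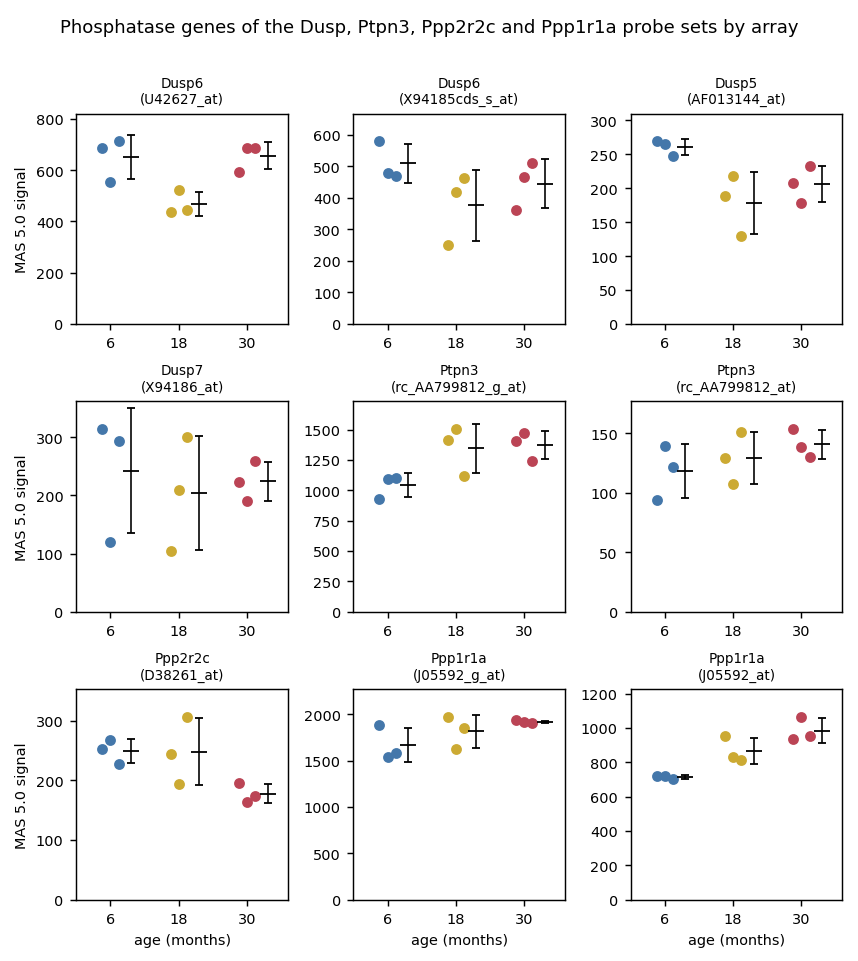
Signal on each array (coloured points, left to right replicates 1 to 3) with the mean and SD (black, n = 3) at 6, 18 and 30 months for *Dusp5*, *Dusp6*, *Dusp7*, *Ptpn3*, *Ppp2r2c* and *Ppp1r1a*, with both probe sets where a gene has a pair. *Dusp6* (first panel) has 438 to 522 at 18 months, below 555 to 714 at 6 months and 594.5 to 688 at 30 months.

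*Dusp1*, the nuclear phosphatase of the stress-activated MAP kinases and a classical immediate-early gene, differed less between ages than between pools of an age. In its strongest probe set the mean signal was 1015 ± 36.2, 1046 ± 270 and 1084 ± 327 at the 3 ages (SD, n = 3), a log2 change of 0.01 and 0.05. The weaker probe sets differed in sign, with 0.09 and 0.28 in one and -0.28 and -0.10 in the other. In the strongest one the arrays of 6 months read 1006, 1055 and 984. Those of 18 months read 798, 1334 and 1007, and those of 30 months 827, 972 and 1452. Thus the 3 pools of 6 months were nearly alike, while at 18 months replicate 2 and at 30 months replicate 3 stood above the rest. The highest signal of an age was 1.07 times the lowest at 6 months, 1.67 times at 18 months and 1.76 times at 30 months. In the other *Dusp1* probe sets these ratios were 1.08, 2.59 and 2.01, and 1.07, 2.11 and 1.46, and the same arrays were highest at 18 and 30 months. Over the 50 tested genes the spread had no common course. The SD on the log2 scale was larger at 30 than at 6 months in 22 genes and larger at 18 than at 6 months in 26. Single genes other than *Dusp1* were also closest at 6 months, such as *Ptpn2* (SD 0.04, 0.13 and 0.28 at the 3 ages) and *Dusp5* (0.06, 0.33 and 0.16). Each SD rests on 3 arrays.

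Other immediate-early genes, looked up after the *Dusp1* values were seen, had their highest signals on the same arrays. *Egr1* read 885, 2062 and 648 at 18 months and 661, 649 and 2083 at 30 months. *Fos* read 843, 1223 and 634 at 18 months and 705, 617 and 1358 at 30 months, and *Jun* read 454.5, 1409 and 719 and then 747, 889.5 and 1251. At 6 months *Egr1* read 736, 838.5 and 1551, a range that *Dusp1* did not share. *Atf3*, a further gene of this kind, was highest in replicate 1 at 18 months (181) and in replicate 3 at 30 months (187). In the MAP kinase list as a whole, 17 of 26 genes were on the array and 16 were tested, and 0 of 16 passed in any comparison, with a median of -0.04 at both ages (0.06 and 0.08 with the arrays at 1 median). *Mapk12*, the muscle-rich p38γ kinase, gave 0.34 and 0.32 (SE 0.12, adjusted p = 0.510 and 0.331), and *Mapk14*, p38α, gave 0.14 and 0.02.

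**Figure D5:**
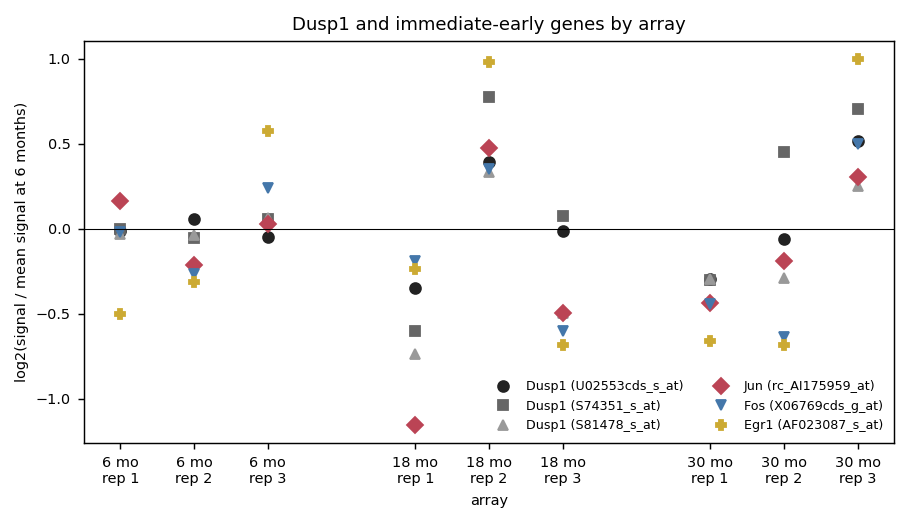
Signal of the 3 *Dusp1* probe sets and of *Jun*, *Fos* and *Egr1* on each of the 9 arrays, as log2 of the ratio to the mean signal at 6 months (line at 0). In all 6 probe sets the highest array of 18 months is replicate 2 and the highest of 30 months is replicate 3.

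The sequences before the starts of *Dusp1*, *Dusp5* and *Dusp6* are shown so that their letters can be set side by side: 2 of these windows hold a response element searched for here, and that of *Dusp6* holds none. They are the 250 bases upstream of the annotated start in RefSeq's GRCr8 assembly, each on the plus strand: chr10:17184603-17184852 for *Dusp1*, chr1:262543524-262543773 for *Dusp5* and chr7:35979354-35979603 for *Dusp6*. Capitals mark matches on either strand to the cyclic AMP response element TGACGTCA, to its shorter core TGACG, which the full element contains, and to the CArG box bound by serum response factor.
Dusp1: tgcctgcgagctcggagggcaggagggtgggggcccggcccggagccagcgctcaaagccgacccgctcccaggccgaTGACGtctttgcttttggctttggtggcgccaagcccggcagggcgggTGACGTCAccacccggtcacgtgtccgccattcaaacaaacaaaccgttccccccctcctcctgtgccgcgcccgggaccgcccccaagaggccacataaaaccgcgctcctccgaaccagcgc
Dusp5: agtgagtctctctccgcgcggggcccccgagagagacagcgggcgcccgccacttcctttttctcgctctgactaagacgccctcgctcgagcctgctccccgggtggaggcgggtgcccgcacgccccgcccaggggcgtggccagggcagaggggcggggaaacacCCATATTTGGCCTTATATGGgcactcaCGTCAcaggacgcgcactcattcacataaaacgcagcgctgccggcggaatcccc
Dusp6: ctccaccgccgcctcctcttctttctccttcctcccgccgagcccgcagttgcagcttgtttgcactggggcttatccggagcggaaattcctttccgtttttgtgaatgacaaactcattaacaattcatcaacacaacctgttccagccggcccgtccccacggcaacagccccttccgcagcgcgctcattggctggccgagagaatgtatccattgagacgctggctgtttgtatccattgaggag
The *Dusp1* window holds the full element TGACGTCA, 124 to 117 bases before the start, and a further copy of the core at 172 to 168 bases. In *Dusp5* 2 CArG boxes, CCATATTTGG and CCTTATATGG, stand side by side from 82 to 63 bases before the start, with a core at 55 to 51 bases. The *Dusp6* window matched none of these, nor an ETS site (CCGGAAG) or an AP-1 site (TGANTCA). The windows of *Dusp7* and *Ppp3ca* were also searched, are not printed and matched none of them either. Of 27457 windows of the same length before rat genes, 1.7% held the full element, 19.0% the core, 1.5% a CArG box, 7.74% the ETS site and 6.36% the AP-1 site. Among the 58 phosphatase genes with a window, 4 (6.9%) held the full element (*Dusp1*, *Ppp1r15a*, *Ptprs* and *Ptpru*). The core was held by 18 (31.0%), and *Dusp5* was the 1 gene with a CArG box. Differences between these shares and those of all windows were not tested. A match in letters is a description and shows no binding in this muscle.

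Of 10 non-receptor tyrosine phosphatase genes, 7 were tested. *Ptpn3*, whose product binds membrane and cytoskeletal proteins, read 928, 1095 and 1099.7 at 6 months and 1411, 1506 and 1116 at 18 months; those of 30 months read 1403, 1469 and 1245. All arrays of both later ages lay above those of 6 months, replicate 3 of 18 months by little. The log2 change was 0.35 at 18 months (SE 0.14, 95% interval 0.03 to 0.67, adjusted p = 0.558) and 0.39 at 30 months (0.07 to 0.71, adjusted p = 0.329). The weaker probe set gave 0.10 and 0.21 (adjusted p = 0.862 and 0.564), with overlap. The summed muscle fibre markers given above likewise lay higher at both later ages without overlap, and their part in the *Ptpn3* signal was not tested. *Ptpn1*, the phosphatase PTP1B that acts on the insulin receptor, had mean signals of 1125, 1094 and 1038 (log2 change -0.04 and -0.12). Its 5 tested probe sets ran from -0.13 to 0.37 at 30 months.

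*Ptpn12*, a regulator of cell adhesion, read 177, 158 and 144 at 6 months and 136, 138 and 129 at 30 months, without overlap (log2 change -0.20, adjusted p = 0.482). *Ptpn2*, a phosphatase of JAK kinases, gave -0.27 and *Ptpn18* -0.32 at 30 months (adjusted p = 0.473 and 0.469). *Ptpn11*, the gene of SHP2, gave -0.36 (adjusted p = 0.515). Among 22 insulin and tyrosine kinase receptor genes and signal carriers on the array, 17 were tested and 0 passed in any comparison, with medians of -0.07 and -0.10 (0.04 and 0.03 with the arrays at 1 median). The insulin receptor gene *Insr* had log2 changes of 0.50 and 0.76 with a large error (SE 0.32, adjusted p = 0.668 and 0.356), and *Fgfr1* gave -0.23 and -0.12.

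Among the receptor tyrosine phosphatases, 8 of 18 genes were too weak to test. The 10 tested ones had medians of 0.01 at 18 months and 0.06 at 30 months (0.12 and 0.18 with the arrays at 1 median). *Ptprf*, the gene of the adhesion receptor LAR, read 140, 141.6 and 109.6 at 6 months and 130, 150 and 123 at 18 months; those of 30 months read 147, 167 and 163. Its arrays of 30 months lay above those of 6 months (log2 change 0.24, adjusted p = 0.443). *Ptprg* gave -0.29 (adjusted p = 0.410) and *Ptpro* -0.32 (adjusted p = 0.395) at 30 months. *Ptprs* and *Ptprm*, receptors of the cell surface, gave 0.03 and 0.21 at 30 months. The 3 tested *Ptprs* probe sets ran from 0.13 to 0.59 at 18 months and from -0.37 to 0.07 at 30 months.

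*Ptprc* and *Ptpre*, phosphatases known from leukocytes, each varied widely between arrays of 1 age. On the log2 scale *Ptprc* had the largest SD of the 50 tested genes at 6 months, and *Ptpre* at 18 months. *Ptprc*, which encodes the leukocyte antigen CD45, read 125.7, 21.3 and 45.6 at 6 months and 76.7, 84.4 and 105 at 18 months; those of 30 months read 95.2, 73.8 and 88.9. The arrays of 6 months enclosed those of both other ages, and the interval at 30 months ran from -0.28 to 1.16. A weaker *Ptprc* probe set, too low to test, read 22.8 to 27.8 at 6 months, 4.9 to 21.3 at 18 months and 10.8 to 25.1 at 30 months. *Ptpre* read 104, 120.2 and 133 at 6 months and 127, 12.2 and 83.3 at 18 months; those of 30 months read 81.5, 74.9 and 93.7. Its log2 change of -0.69 at 18 months (SE 0.38, adjusted p = 0.624) was the largest of the 50 at that age, and replicate 2 of 18 months was far below the other arrays. Without that array the change of *Ptpre* was -0.15. Its arrays of 30 months all lay below those of 6 months (log2 change -0.39, adjusted p = 0.677). *Ptpn6* and *Ptpn7*, 2 phosphatases of blood cells, were not tested, at 28.3 to 121 and 7.3 to 61.3.

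Different probe sets of a gene often disagreed in sign. Of 16 phosphatase genes with more than 1 tested probe set, 8 had all of them on the same side at 18 months, 7 at 30 months and 5 at both ages. These 5 were *Ppm1a*, *Ppp1r1a* and *Ptpn3* (higher) and *Ppp2r2a* and *Ppp2r3a* (lower), none of which passed. The filter on low signals left out 16 genes, with mean signals of 3.62 to 61.7. The lowest tested gene was *Ptprc*, with a mean log2 of 6.74, and the highest untested one *Ptpn6*, with 6.5.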

How the data were processed

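The data are the authors' deposited signal intensity values, computed with Affymetrix Microarray Suite 5.0 per the labels' protocols and left on a linear scale. Each of the 9 arrays carried pooled RNA of 4 animals. Their scaling was kept; the genome build behind the probe sets is not given in the sources used here. Of 8799 probe sets, 59 controls were left out. Symbols came from the platform's annotation: 7006 probe sets carry 1 symbol, of which 6994 matched a RefSeq gene table (GRCr8) and 0 changed.

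Signals were taken as log2(signal + 32), and the upper 60% by mean log2 (5244 probe sets) were fitted in R 4.3.3 by limma 3.58.1 (lmFit, then eBayes), using 1 mean per age over all 9 arrays, with 6 residual and 3.69 prior degrees of freedom. P-values are two-sided, adjusted by Benjamini and Hochberg over all 5244 probe sets. With 3 arrays against 3, exact permutation reaches p = 0.1 at best and was not used. Precision is limited by the number of arrays. The scripts were tested on simulated data. Promoter windows came from RefSeq (58 of 66 genes matched).

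The members, the 5 pathway lists and the 11 marker lists were chosen with earlier results of these data known. Genes were named if they passed, if they belonged to calcineurin or myosin phosphatase, if they were among the 12 smallest F-test p-values or the 2 brightest of a family, or if ages did not overlap and mean signals differed over 1.7-fold; 31 genes met this. From each list, the 2 brightest genes and the 2 with the smallest F-test p were eligible. Others named were chosen after their values were seen. The alternatives covered pseudocount, filter, scaling, replicate block, probe set choice and each array left out.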

Additional observations from a re-analysis of the deposited data

How the results depend on the processing

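No phosphatase gene passed the threshold in any of the alternatives run: 0 calls in each comparison with a pseudocount of 8 or 64, without the filter, with the upper 40%, after quantile normalization or scaling to 1 median, with other probe sets, with only the 2 ages compared, without any single array, and by the fold rule. Over 30 named genes and 20 alternatives the lowest adjusted p was 0.203 (*Ppp2r2c*, 30 against 6 months, only those ages), and 118 of 1767 values turned sign, none of them called. The median log2 change moved to 0.0838 at 18 months and 0.103 at 30 months when arrays were scaled to 1 median, a scaling that moved all probe sets to 0.06 and 0.08, and leaving out 1 array gave -0.102 to -0.0014 at 30 months, the lowest without replicate 3 of 6 months. Counts of genes without overlap were 3, 8 and 5 in the 3 comparisons (18 with 6, 30 with 6 and 30 with 18 months). Without the filter they became 5 and 14 of 66 in the former pair (7.58% and 21.2%, against 12.5% and 21.1% of all probe sets), and with the upper 40% they became 4 and 2 of 36 in the latter pair (11.1% and 5.56%, against 21.3% and 7.04%). With 1 median 14 of 50 had no overlap at 30 with 6 months (28%, against 24.2%), and after quantile normalization 3 of 50 at 30 with 18 months (6%, against 7.68%). At 18 with 6 months second probe sets gave 7 of 42 (16.7%, against 13.7%) and averaged ones 5 of 50 (10%, against 13.6%). Without 1 array the counts ran from 3 to 11, 8 to 14 and 5 to 10, or 6% to 22%, 16% to 28% and 10% to 20%, against 13.7% to 28.5%, 22.2% to 34.2% and 7.36% to 24.8% of all probe sets. Setting by setting, the phosphatase share lay above that of all probe sets in 0 of 9 in each comparison with 6 months. At 30 with 18 months it did so in 7 of 9. In every comparison, the settings that leave out an array of the age not compared only repeat the main share. Whether replicate numbers pair the arrays was not settled. Deviations from the age means correlated at -0.02 to 0.26 over 9 same-numbered pairs, 8 of them above 0 but 4 above 0.1, and at -0.21 to 0.15 over 18 other pairs. Between 18 and 30 months every array correlated best with its own number (0.09 to 0.26, against -0.21 to 0.0021), a hint from the data and not from the design, whereas replicate 3 of 6 months correlated best with replicate 2 of the later ages (0.15 and 0.11). The deviations of an age sum to 0, so higher same-numbered values go with lower other values, and these ranges are not independent. A replicate block left the counts 0 in each comparison. The arrays give no measure of background per probe set here, so weak genes such as *Ptprc* are the least certain.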

Other observations

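The catalytic PP2A gene *Ppp2ca* is read by 2 probe sets that the annotation assigns jointly to it and to *Ppp2cal1*, so neither entered the set above. The first read 1739 ± 26.9, 1782 ± 99.3 and 1771 ± 92.1 from the youngest age to the oldest (SD, n = 3), with a log2 change at 30 months of 0.02 and a 95% interval of -0.21 to 0.25. The second read 2066 ± 163, 1856 ± 231 and 1841 ± 212, with a change of -0.17 (-0.47 to 0.14). Neither passed in any comparison.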
